A study of Rattus norvegicus with 10 samples.

Results

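The transcripts described here encode amino acid carriers of the fetal rat heart. They were taken by symbol from the deposited expression table, as genes whose symbols begin with Slc1a, Slc3a, Slc7a, Slc36a, Slc38a or Slc43a. Of 18025 genes listed, 39 had such a symbol, and 30 of them reached 0.1 FPKM on average over the 10 libraries. FPKM is the number of sequenced fragments divided by gene length and by library size, so that levels of different genes can be compared. The member closest above this minimum was Slc1a2 at a mean of 0.163 FPKM, and the closest below it was Slc38a8 at 0.0942 FPKM. The symbol rule also took in Slc7a6os, the opposite-strand neighbor of Slc7a6, which does not encode a carrier.

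The hearts came from wild-type (wt) Sprague-Dawley fetuses at embryonic day 19.5. The 5 libraries of the control (CON) group came from pregnancies of dams injected with citric acid buffer. Those of the hyperglycemia (HG) group, also 5, came from dams injected with streptozotocin (STZ), which destroys insulin-producing cells, in the same buffer. Dams were 3 months old, were injected on 3 consecutive days, and were mated with males that had normal blood glucose. STZ dams were taken as diabetic with a non-fasting glucose above 16 mM, measured 7 days after injection. The descriptions differ on whether grouping came before mating or after the vaginal plug was found. They do not say whether fetuses of a group had different mothers, so p-values measure only the spread between these libraries. The methods also speak of pooled RNA of the 10 samples, while each deposited column holds its own values, and the libraries were treated here as separate samples. Each library held RNA of heart tissue, per the labels, in which fewer cells of a type and less RNA per cell cannot be told apart.

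Amino acids do not cross the cell membrane freely, and each carrier family moves its own range of them. The heavy chain encoded by Slc3a2 (CD98) brings light chains of the Slc7 family to the cell surface, where the pair trades an amino acid inside for another outside. Carriers of the Slc1 family move glutamate or small neutral amino acids. Those of Slc38 carry glutamine and other neutral amino acids with sodium, and some of Slc36 carry theirs with protons. The branched-chain carriers of Slc43 work without a heavy chain. Leucine, arginine and glutamine that enter by these routes feed protein synthesis and are sensed by the kinase complex mTORC1, a main control of growth.

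The CON libraries had 17639895 to 18240006 reads on genes and the HG libraries 16672876 to 19109844 (two-sided exact permutation test, p = 0.770). Markers of cardiomyocytes were abundant in both groups, with Tnnt2 between 3093 and 4058 FPKM, although 5 of these 6 markers were called lower in HG and 1 higher (their sums were 9390 to 10001 FPKM in CON and 8586 to 10099 FPKM in HG). The summed level of 3 smooth muscle markers was higher in HG (770 to 949 FPKM, against 560 to 682 FPKM in CON, exact permutation p = 0.00794, adjusted p = 0.0476 over 12 sums). Of these, Acta2 (means of 538 in CON and 673 FPKM in HG) and Cnn1 were called higher, and Myh11 was not called. The summed level of 4 liver markers was lower in HG (0.852 to 2.40 FPKM, against 3.12 to 73.0 FPKM in CON, adjusted p = 0.0476). Hemoglobin genes held 2.27 to 4.21% of the FPKM in CON and 1.86 to 2.56% in HG (adjusted p = 0.0762). The macrophage markers, a list of 5, summed to 7.30 to 9.99 FPKM in CON and 9.50 to 11.4 FPKM in HG (adjusted p = 0.0635). Among them, 2 were called higher and 1, Cd163, lower. The part of these differences in the results that follow was not tested.

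More amino acid carriers were higher than lower in HG. With limma on log2(FPKM + 0.1), a Benjamini-Hochberg adjusted p under 0.05 over all 14542 genes tested was found for 14 of the 30 members, 13 higher and 1 lower in HG. Among all genes tested, 28.4% passed this threshold as higher and 11.8% as lower, which makes 40.1% in all, so that the 14 calls are close to the background in number and differ from it mainly in direction. The median log2 fold change of HG against CON (log2FC, with its standard error as SE) was 0.20 over the members and 0.09 over all genes tested. Each HG library lay above each CON library in 12 members, and below each in 0 (background 19.3% and 8.12%, or 27.4% in both directions). The threshold of the study for differentially expressed genes (DEGs), which adds an absolute log2FC above 1, was passed by 1 member, Slc7a3 (background 1.94% in all and 0.866% as higher). All other calls were changes of less than 1 on the log2 scale.

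The scaling of the libraries shifted these numbers. After division by median-of-ratios factors the median over all genes fell from 0.09 to 0.01. There, 9 members were called higher (background 15.6%) and 1 lower (background 17.5%). With quantile normalization 10 were higher (background 18.0%) and 2 lower (background 15.9%). The members Slc3a2, Slc7a5, Slc7a6, Slc7a1, Slc7a3, Slc1a4, Slc1a5, Slc43a1 and Slc43a3, 9 in number, were called higher in the main comparison and in every alternative in which they were tested. Slc7a3 was not tested with a minimum mean of 1 FPKM.

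**Figure D1:**
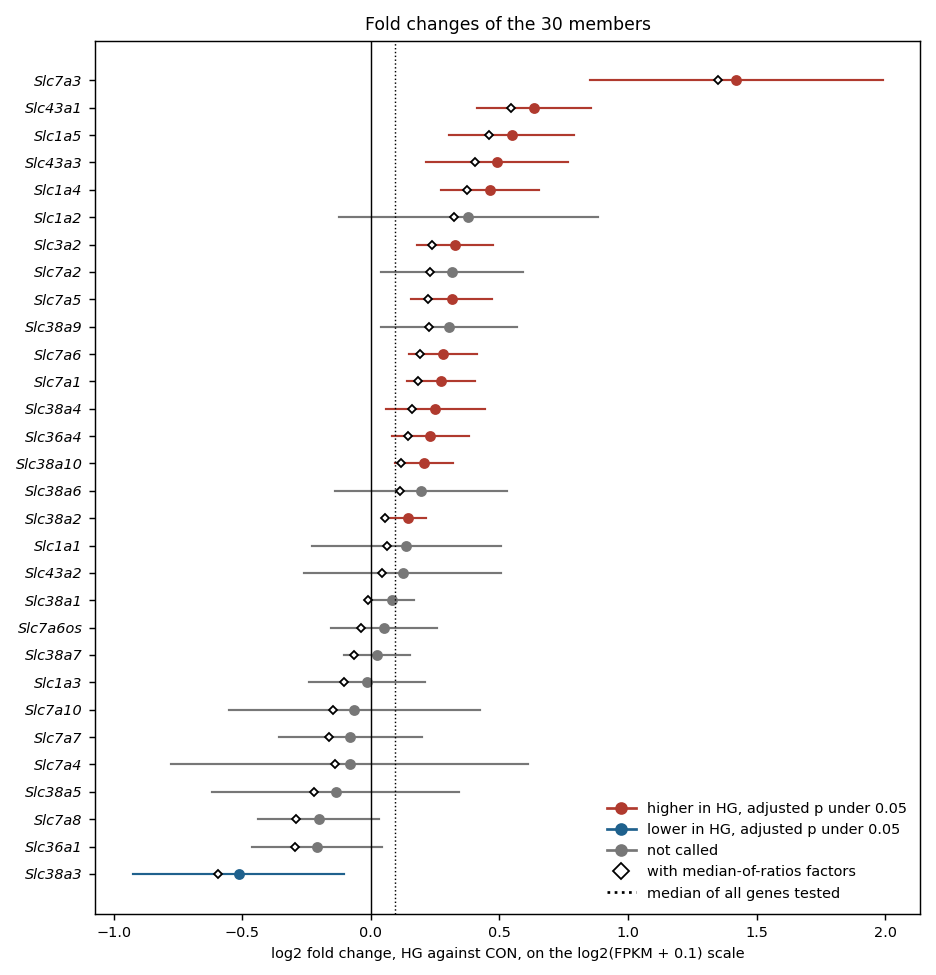
Log2FC of each of the 30 members, HG against CON, on the log2(FPKM + 0.1) scale (horizontal axis), with 95% confidence intervals from limma as lines and call by color. Open diamonds give the value with median-of-ratios factors and the dotted line the median of all genes tested (0.09). Slc7a3 lies farthest to the right at 1.42 and Slc38a3 farthest to the left at -0.51.

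Levels were uneven among the members. Their summed level was 220.1 to 231.4 FPKM in the CON libraries and 252.2 to 273.5 FPKM in the HG libraries. With median-of-ratios factors these ranges were 227 to 238 and 241 to 267, still without overlap. Slc38a2, Slc38a1 and Slc3a2 held between 48.3 and 52.1% of the sum in every library. In what follows, a value with ± is the mean of a group with the SD over its libraries (n = 5).

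Of the heavy chain and the light chains that it carries to the surface, 6 were tested and 3 were called higher in HG. Among all genes tested, 28.4% were called higher, and 15.6% with median-of-ratios factors. Slc3a2 (NCBI Gene 50567), the heavy chain, was at 25.2, 24.6, 23.9, 23.4 and 27.7 in CON and 30.6, 36.2, 31.1, 31.8 and 27.3 FPKM in HG. The groups overlapped only between CON replicate 5 and HG replicate 5. On average it went from 24.9 ± 1.66 to 31.4 ± 3.19 FPKM, a log2FC of 0.33 (SE 0.0685, adjusted p = 0.00256 from limma). Slc7a5 (50719) encodes LAT1, a light chain that takes up leucine and other large neutral amino acids. Its level was 9.23, 9.45, 9.77, 8.99 and 10.03 in CON and 11.5, 14.4, 11.6, 11.04 and 10.9 FPKM in HG. Every HG library lay above every CON library, and HG replicate 2 was the highest, as it was for Slc3a2. The log2FC of Slc7a5 was 0.31 (SE 0.0727, adjusted p = 0.00474).
Slc7a6 (307811) encodes y+LAT2, which trades cationic for neutral amino acids. It was at 8.57, 9.06, 9.42, 9.37 and 8.77 in CON and 11.4, 10.7, 10.9, 9.82 and 12.3 FPKM in HG, again without overlap (log2FC 0.28, SE 0.0604, adjusted p = 0.00308). Slc7a6os (246187), the neighboring gene on the opposite strand, was at 10.5 ± 1.38 in CON and 10.8 ± 1.08 FPKM in HG (log2FC 0.05, adjusted p = 0.706). The libraries were stranded, but whether strand was used in counting is not given in the sources used here, and reads past the end of either gene of this pair could then be given to the other.

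The other light chains were not called. Slc7a8 (84551) encodes LAT2, a further carrier of neutral amino acids, and was at 2.31, 1.90, 1.92, 2.04 and 2.20 in CON and 1.66, 2.20, 1.73, 1.49 and 1.91 FPKM in HG. These ranges overlapped (log2FC -0.20, 95% interval -0.44 to 0.03, adjusted p = 0.158), although with quantile normalization the value was -0.30 with an adjusted p of 0.0401. Slc7a7 (83509) encodes y+LAT1 and was at 1.11, 1.21, 1.19, 0.802 and 1.35 in CON and 0.964, 1.08, 1.05, 1.07 and 1.10 FPKM in HG. All HG libraries lay within the CON range (log2FC -0.08, 95% interval -0.36 to 0.20). Slc7a10 (114518), the light chain of a carrier of small neutral amino acids, was at 1.205, 1.06, 1.18, 1.25 and 0.918 in CON and 0.850, 1.24, 0.819, 0.747 and 2.04 FPKM in HG. Its HG libraries reached beyond both ends of the CON range, with replicate 5 far above the rest (log2FC -0.07, 95% interval -0.55 to 0.42). The cystine carrier Slc7a11, the second heavy chain Slc3a1 and its partner Slc7a9 were below the minimum of 0.1 FPKM.

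**Figure D2:**
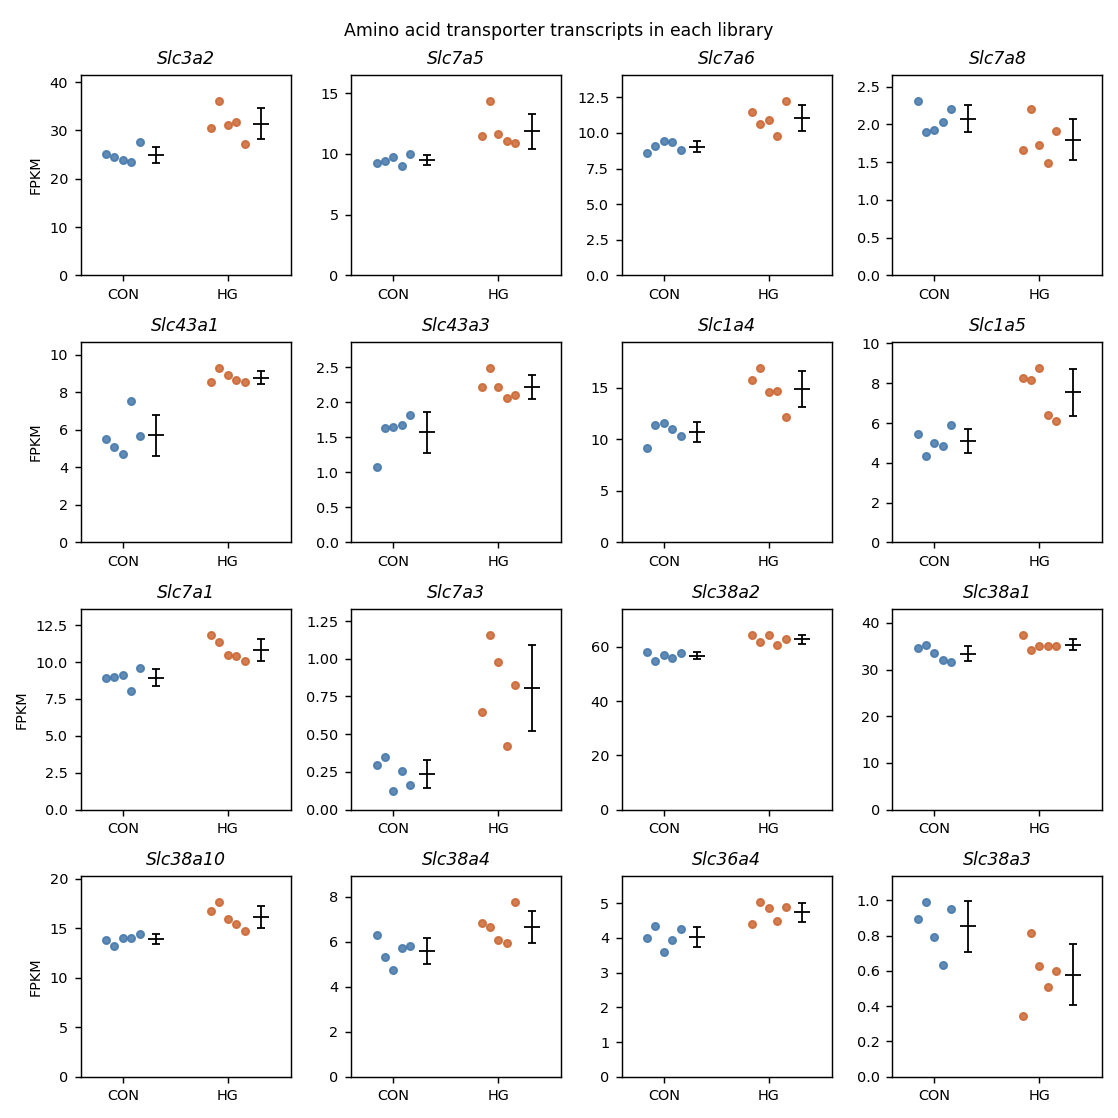
FPKM (vertical axes, from 0) of 16 members in each CON library (blue) and each HG library (orange), with the mean and SD of the 5 libraries in black beside them. The groups are apart in 11 of the panels, among them Slc7a5, Slc43a1 and Slc7a3, and overlap in Slc3a2, Slc7a8, Slc38a1, Slc38a3 and Slc38a4.

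The neutral amino acid exchangers of the Slc1 family were both higher in HG, while its glutamate carriers were not called. Slc1a4 (305540) encodes ASCT1, which carries alanine, serine and cysteine. Its level was 9.21, 11.4, 11.6, 11.04 and 10.3 in CON and 15.8, 16.9, 14.6, 14.7 and 12.2 FPKM in HG. All HG libraries were above all CON libraries, with a log2FC of 0.46 (SE 0.0870, adjusted p = 0.00128). Slc1a5 (292657) encodes ASCT2, a main route of glutamine into growing cells. It was at 5.44, 4.33, 5.00, 4.84 and 5.91 in CON and 8.26, 8.15, 8.77, 6.40 and 6.11 FPKM in HG. HG replicates 4 and 5 lay close to the highest CON library, and the other HG libraries stood well above it (log2FC 0.55, SE 0.112, adjusted p = 0.00227).
Of the carriers that take up glutamate, Slc1a3 (29483) was at 3.28 ± 0.507 in CON and 3.22 ± 0.244 FPKM in HG (log2FC -0.02, 95% interval -0.24 to 0.21). Slc1a1 (25550) had a log2FC of 0.14 (95% interval -0.23 to 0.51) at a mean near 0.534 FPKM. Slc1a2 (29482) was read by only 3 to 11 fragments per library, and its interval of -0.12 to 0.88 on the log2 scale leaves its direction undetermined.

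Carriers of arginine and lysine were higher in HG for Slc7a1 and Slc7a3. Slc7a1 (25648), which encodes the widely expressed carrier CAT1, was at 8.90, 8.99, 9.14, 8.05 and 9.61 in CON and 11.8, 11.4, 10.5, 10.4 and 10.04 FPKM in HG. There was no overlap, and the log2FC was 0.27 (SE 0.0612, adjusted p = 0.00383). Slc7a3 (29485) encodes CAT3, a carrier of the same kind better known from the brain. At 0.294, 0.350, 0.121, 0.253 and 0.160 in CON and 0.649, 1.16, 0.981, 0.422 and 0.829 FPKM in HG, it was far below Slc7a1 in every library. Even so its groups did not overlap, and it had the largest log2FC of the members, 1.42 (SE 0.262, adjusted p = 0.00115). This rests on 60 reads over the CON libraries and 203 over the HG libraries. The value was 0.54 with a pseudocount of 1, as a larger pseudocount shrinks changes at low levels. Slc7a2 (64554), which encodes CAT2, was at 1.54 ± 0.265 in CON and 1.93 ± 0.256 FPKM in HG (log2FC 0.31, adjusted p = 0.0674). For Slc7a4 (303787), a related protein, the log2FC was -0.08 with a 95% interval of -0.78 to 0.61, at 4 to 22 reads per library.

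The Slc43 family held the called member with the smallest adjusted p. Slc43a1 (311168) encodes LAT3, which lets leucine and other branched-chain amino acids pass without a heavy chain. In CON it was at 5.53, 5.08, 4.70, 7.51 and 5.66 FPKM, with replicate 4 above the rest. The HG libraries were narrowly spread, at 8.53, 9.29, 8.92, 8.63 and 8.52 FPKM, all above CON replicate 4. The log2FC was 0.63 (SE 0.102, adjusted p = 0.000464). Slc43a3 (311170), known as a carrier of purine bases and not of amino acids, was at 1.07, 1.63, 1.65, 1.67 and 1.82 in CON and 2.21, 2.49, 2.22, 2.06 and 2.10 FPKM in HG. These did not overlap either (log2FC 0.49, SE 0.128, adjusted p = 0.00917). Slc43a2 (287532) encodes LAT4, a relative of LAT3, and had 0.670 ± 0.0600 in CON and 0.759 ± 0.2003 FPKM in HG (log2FC 0.12, 95% interval -0.26 to 0.51).

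The Slc38 family held the most abundant members, and its 3 calls as higher rested on small differences. Slc38a2 (29642) encodes SNAT2, which takes up neutral amino acids together with sodium. It was at 58.2, 54.9, 57.0, 55.8 and 57.6 in CON and 64.2, 61.8, 64.3, 60.6 and 62.8 FPKM in HG. The groups were apart, but the log2FC was only 0.15 (SE 0.0318, adjusted p = 0.00324), and with median-of-ratios factors it was 0.06 with an adjusted p of 0.213. Slc38a1 (170567), which encodes SNAT1, was at 34.6, 35.2, 33.5, 32.1 and 31.6 in CON and 37.4, 34.3, 35.0, 35.0 and 35.0 FPKM in HG. Its ranges overlapped, and its log2FC was 0.08 (95% interval -0.01 to 0.17, adjusted p = 0.139), turning to -0.01 with median-of-ratios factors.
Slc38a10 (303740) was at 13.9, 13.2, 14.02, 14.1 and 14.5 in CON and 16.7, 17.7, 15.98, 15.4 and 14.8 FPKM in HG. It was called higher, without overlap (log2FC 0.21, SE 0.0519, adjusted p = 0.00720), but with median-of-ratios factors its adjusted p was 0.124 and with quantile normalization 0.0833. Slc38a4 (170573), which encodes SNAT4, was at 6.29, 5.31, 4.74, 5.73 and 5.81 in CON and 6.83, 6.66, 6.06, 5.94 and 7.75 FPKM in HG. HG replicates 3 and 4 were below the highest CON library (log2FC 0.25, SE 0.0887, adjusted p = 0.0403). That call was lost under 13 of 21 alternatives, with adjusted p-values of 0.0255 to 0.173.
Slc38a3 (252919) encodes SNAT3, a carrier of glutamine and histidine that is abundant in liver, and was the member called lower. It was at 0.894, 0.990, 0.794, 0.633 and 0.950 in CON and 0.342, 0.813, 0.628, 0.511 and 0.597 FPKM in HG. HG replicate 2 lay within the CON range. Its log2FC was -0.51 (SE 0.189, adjusted p = 0.0466), and the call was lost under 10 of 20 alternatives, with adjusted p-values of 0.0184 to 0.0987. Liver markers moved the same way, as given above, and their part in this value was not tested. Slc38a5 (192208), a carrier of the same kind, had a log2FC of -0.14 (95% interval -0.62 to 0.34).

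The carriers of this family found on lysosomes were not called. Slc38a7 (291840), which lets glutamine out of lysosomes, was at 8.49 ± 0.456 in CON and 8.64 ± 0.577 FPKM in HG (log2FC 0.02, 95% interval -0.10 to 0.15). Slc38a9 (310091), which reports lysosomal arginine to mTORC1, was at 0.832, 0.821, 0.607, 0.620 and 0.726 in CON and 0.879, 0.846, 0.959, 0.848 and 1.02 FPKM in HG. The groups did not overlap, yet the adjusted p was 0.0634 (log2FC 0.31, SE 0.122). It passed the threshold in 3 of 20 alternatives, with a pseudocount of 1, without the trend, and with voom on recovered reads. Slc38a6 (299139) had a log2FC of 0.20 (95% interval -0.14 to 0.53).
Of the Slc36 family, Slc36a4 (315439) was at 3.99, 4.35, 3.60, 3.93 and 4.25 in CON and 4.40, 5.03, 4.87, 4.48 and 4.90 FPKM in HG. The lowest HG value was just above the highest CON value (log2FC 0.23, SE 0.0693, adjusted p = 0.0187). The adjusted p was 0.118 with median-of-ratios factors and 0.154 with quantile normalization. Slc36a1 (155205), the lysosomal carrier PAT1, had a log2FC of -0.21 (95% interval -0.46 to 0.04, adjusted p = 0.176).

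Ratios of a pair of members within a library do not depend on how the library was scaled, and 6 were compared. Slc7a5 to Slc7a8, the ratio of LAT1 to LAT2, was 4.60 ± 0.445 in CON and 6.65 ± 0.633 in HG. The CON libraries ranged from 3.99 to 5.09 and the HG libraries from 5.68 to 7.40, without overlap. The log2 difference was 0.53 (exact permutation, two-sided, p = 0.00794; the design can give no smaller p; adjusted p = 0.0476 over the 6 ratios). With CON replicate 1 left out the groups were still apart, at 4.42 to 5.09 in CON, and the adjusted p was 0.0952, against 0.0476 with any other library left out. The light chain Slc7a5 kept its proportion to the heavy chain Slc3a2 within the spread of libraries, at 0.381 ± 0.0179 in CON and 0.378 ± 0.0215 in HG (exact permutation p = 0.825).
No other ratio passed the threshold. Slc43a2 to Slc43a1 was 0.121 ± 0.0271 in CON and 0.0861 ± 0.0209 in HG (log2 difference -0.51, exact permutation p = 0.0556, adjusted p = 0.167). With CON replicate 4 left out, the log2 difference was -0.61 and the adjusted p 0.0476. HG replicate 1 was at 0.0497, with the other HG libraries between 0.0891 and 0.103, and without it the difference was smaller in size. For Slc38a2 to Slc38a1 the ratio was 1.70 ± 0.0956 in CON and 1.78 ± 0.0511 in HG (adjusted p = 0.302). Slc1a5 to Slc1a4 was 0.482 ± 0.0938 in CON and 0.508 ± 0.0603 in HG (adjusted p = 0.821), and Slc7a1 to Slc7a2 was 5.96 ± 1.10 in CON and 5.69 ± 0.886 in HG (adjusted p = 0.825).

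**Figure D3:**
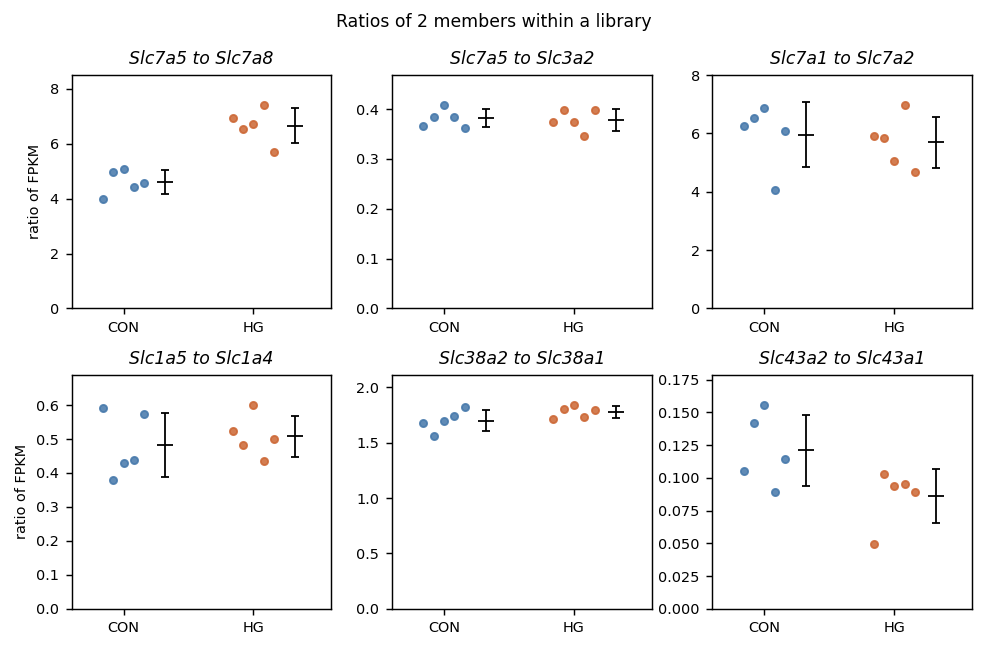
Ratio of the FPKM of 2 members (vertical axes, from 0) in each CON library (blue) and each HG library (orange), with the mean and SD of the 5 libraries in black beside them. The groups are apart only for Slc7a5 to Slc7a8, at 3.99 to 5.09 in CON and 5.68 to 7.40 in HG.

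Since 13 members were called higher together, their start sites were searched for the letters of motifs tied to amino acid shortage and to growth. Start-site windows from RefSeq (build GRCr8, mostly upstream of each annotated start) were listed for 22 of the 30 members, among them 9 of the 13 called higher. The members without one were Slc38a10, Slc1a5, Slc43a3, Slc7a2, Slc38a3, Slc1a1, Slc7a3 and Slc7a4. The CARE motif, the element bound by ATF4 with C/EBP proteins, was searched as TGATGNAAN on both strands. It was present in windows of Slc7a1, Slc1a4 and Slc38a1, which is 3 of the 26 windows of members, against 3.97% of 33469 windows of all genes. The E-box CACGTG, bound by MYC and its relatives, was present in 5 of the 26 windows of members (6.42% of all windows). These were windows of Slc1a4, Slc7a5, Slc43a1, Slc36a1 and Slc38a7, of which the first 3 were called higher. The matches to the motifs did not overlap each other. They describe letters in these windows and show no binding. The following stretches show the matches of called members and of Slc38a1, which was not called, with up to 20 bases on each side, written along the strand of the gene with the motif in capitals.
Slc7a1, CARE, chr12:11664438-11664486, plus strand, motif beginning 30 bases before the start: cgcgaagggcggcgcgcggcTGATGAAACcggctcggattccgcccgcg
Slc1a4, CARE on the opposite strand, chr14:98761770-98761812, minus strand, motif beginning 236 bases before the start: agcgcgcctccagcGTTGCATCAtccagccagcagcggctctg
Slc38a1, CARE, chr7:129681515-129681563, minus strand, motif beginning 142 bases before the start: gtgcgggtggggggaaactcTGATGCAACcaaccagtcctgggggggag
Slc7a5, E-box, chr19:66872566-66872611, minus strand, motif beginning 179 bases before the start: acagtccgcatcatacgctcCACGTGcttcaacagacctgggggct
Slc43a1, E-box, chr3:90327211-90327256, plus strand, motif beginning 91 bases before the start: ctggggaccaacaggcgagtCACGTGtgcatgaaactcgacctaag
Slc1a4, E-box, chr14:98761563-98761602, minus strand, motif beginning 20 bases before the start: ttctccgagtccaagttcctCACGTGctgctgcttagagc
The CARE of Slc1a4 reads on the other strand, and the same gene carries its E-box close to the start. The log2FC beside these sequences was 0.27 for Slc7a1, 0.46 for Slc1a4, 0.08 for Slc38a1, 0.31 for Slc7a5 and 0.63 for Slc43a1. Slc36a1 and Slc38a7, which also had an E-box and were not called, had -0.21 and 0.02.

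Carriers of amino acids outside these families went both ways. Of 12 tested genes of that list, 5 were higher and 3 lower in HG (28.4% and 11.8% of all genes). Their median log2FC was -0.07 (0.09 over all genes tested). Slc6a6, the taurine carrier, went from 9.14 ± 0.643 to 13.5 ± 0.599 FPKM (log2FC 0.56, adjusted p = 1.80e-05 from limma). Slc17a5, which exports sialic acid from lysosomes, had a log2FC of 0.67 (adjusted p = 0.000401) and Slc6a9, the glycine carrier GLYT1, of 0.45 (adjusted p = 0.00338). Slc6a17 was lower, at 38.9 ± 4.34 in CON and 22.7 ± 2.50 FPKM in HG (log2FC -0.77, adjusted p = 4.39e-05). Slc16a10, which carries aromatic amino acids, had -0.38 (adjusted p = 0.000585) and Slc15a4, which exports histidine and peptides from lysosomes, -0.24 (adjusted p = 0.00280).

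Enzymes that break down branched-chain amino acids were mostly lower in HG. Of LAT1 to LAT4, given above, LAT1 and LAT3 were called higher, while LAT2 (log2FC -0.20) and LAT4 (log2FC 0.12) were not called. Of 23 tested genes of the breakdown list, 15 were lower and 1 higher (11.8% and 28.4% of all genes), with a median log2FC of -0.36. Bcat2, the mitochondrial aminotransferase that opens the pathway, was at 31.6 ± 1.38 in CON and 21.3 ± 1.26 FPKM in HG (log2FC -0.57, adjusted p = 5.64e-06). Aldh6a1 had -0.62 (adjusted p = 3.55e-06) and Ivd, which acts on the leucine branch, -0.55 (adjusted p = 7.00e-06). Bcat1, the cytosolic aminotransferase, was the gene called higher, from 9.92 ± 1.24 to 16.5 ± 0.396 FPKM (log2FC 0.74, adjusted p = 2.06e-05). With median-of-ratios factors 18 genes of this list were lower and 1 higher (17.5% and 15.6% of all genes).

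Of 35 tested genes of amino acid sensing by mTORC1, 7 were higher in HG and 3 lower (28.4% and 11.8% of all genes). That is a share of 28.6% called against 40.1% of all genes. With median-of-ratios factors 2 were higher and 7 lower (15.6% and 17.5% of all genes). Sesn2, a leucine sensor, had a log2FC of 0.45 (adjusted p = 0.000326) and its relative Sesn3 of 0.33 (adjusted p = 0.00128), while Sesn1, of the same family, had -0.43 (adjusted p = 0.000345). Sec13, which is part of the GATOR2 complex, had 0.18 (adjusted p = 0.00171; 0.0735 with median-of-ratios factors) and Lamtor2, of the Ragulator complex, -0.14 (adjusted p = 0.0271). Flcn, which acts on Rag GTPases, was at 40.2 ± 2.05 in CON and 30.5 ± 2.02 FPKM in HG (log2FC -0.40, adjusted p = 0.000112). The kinase gene Mtor itself was at 13.9 ± 0.839 in CON and 14.4 ± 0.287 FPKM in HG (log2FC 0.05, adjusted p = 0.459).

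The integrated stress response leads to ATF4 from several stresses, a shortage of amino acids among them. Of 20 tested genes of this list, 10 were higher and 2 lower in HG, against 28.4% and 11.8% of all genes. Their median log2FC was 0.09, as over all genes tested. With median-of-ratios factors 7 were higher and 2 lower (background 15.6% and 17.5%), and with quantile normalization 6 and 2 (background 18% and 15.9%). Atf4 rose from 97.9 ± 1.59 to 120 ± 3.57 FPKM (log2FC 0.30, adjusted p = 2.33e-05). Asns, asparagine synthetase and a target of ATF4, went from 4.63 ± 0.126 to 9.72 ± 0.521 FPKM (log2FC 1.05, adjusted p = 2.00e-07), and Eif2ak4, the kinase GCN2 that senses uncharged tRNA, had 0.37 (adjusted p = 0.00227). These were the genes called higher with the smallest adjusted p. Chac1, which breaks down glutathione, was also past the DEG threshold (0.474 ± 0.198 in CON and 1.13 ± 0.525 FPKM in HG, log2FC 1.09, adjusted p = 0.0135), and Stc2 had 0.48 (adjusted p = 0.00567). The value of Chac1 rests on 67 reads over the CON libraries and 159 over the HG libraries. With median-of-ratios factors the log2FC was 0.96 for Asns, under the DEG threshold, and 1.01 for Chac1. Trib3 had a log2FC of 0.00 (adjusted p = 0.992) and Ddit3 was lower, with -0.35 (adjusted p = 0.0126). Vldlr had -0.38 (adjusted p = 0.000186).

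Of 16 tested enzymes of glutamine, glutamate and aspartate, 6 were higher and 3 lower in HG (28.4% and 11.8% of all genes). With median-of-ratios factors 3 were higher and 6 lower (15.6% and 17.5% of all genes). Glul, which makes glutamine, had a log2FC of -0.08 (adjusted p = 0.271; -0.17 and 0.0421 with median-of-ratios factors). The aminotransferase genes Got1 and Got2 were lower with -0.31 (adjusted p = 1.71e-05) and -0.28 (adjusted p = 0.000295), and Aldh4a1, of proline breakdown, with -0.78 (adjusted p = 1.80e-06). Pycr1, which makes proline, was higher, with 0.56 (adjusted p = 0.00136), as was Asns, given above.
Of 12 tested genes of glutathione synthesis and transsulfuration, 6 were higher and 4 lower in HG (28.4% and 11.8% of all genes). With median-of-ratios factors the counts were 4 and 5 (15.6% and 17.5% of all genes). Ggt7 had a log2FC of 0.84 (adjusted p = 0.000956), Gss, glutathione synthetase, of 0.22 (adjusted p = 0.00169) and Csad, of taurine synthesis, of 0.38 (adjusted p = 0.00258). Cbs and Cth, the enzymes of transsulfuration, had -1.09 (adjusted p = 0.0143) and -0.51 (adjusted p = 0.0427), and Ggt5 had -0.57 (adjusted p = 0.00367). Cbs was read by only 3 to 35 fragments per library and Cth by 17 to 49, and the groups overlapped for both. Cbs is also a gene of the liver, whose markers were lower in HG, as given above. Of 12 tested genes of arginine use, 4 were higher and 2 lower in HG (28.4% and 11.8% of all genes). With median-of-ratios factors the counts were 2 and 2 (15.6% and 17.5% of all genes). With the replicate number as a block, 3 in all were called. The methyltransferase gene Prmt1 had 0.33 (adjusted p = 8.53e-05) and Gatm, the first enzyme of creatine synthesis, 0.47 (adjusted p = 0.000276), while Gamt, the second, had -0.15 (adjusted p = 0.0496). Odc1, of polyamine synthesis, had 0.12 (adjusted p = 0.0143; 0.603 with median-of-ratios factors) and Nos1, the neuronal nitric oxide synthase, -0.84 (adjusted p = 0.0389) at 0.222 ± 0.0673 in CON and 0.0913 ± 0.0868 FPKM in HG. Nos3, the endothelial nitric oxide synthase, had 0.25 (adjusted p = 0.0204), and 0.16 with an adjusted p of 0.126 with median-of-ratios factors.

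**Figure D4:**
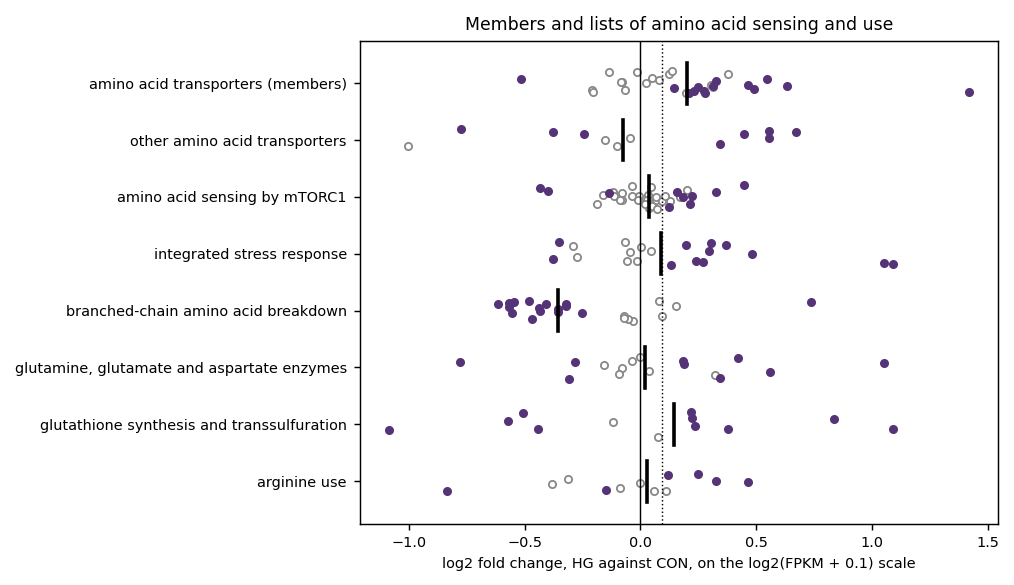
Log2FC, HG against CON, on the log2(FPKM + 0.1) scale (horizontal axis) of every tested gene of the members and of 7 lists, filled where the adjusted p was under 0.05. Black bars are list medians, from -0.36 for branched-chain amino acid breakdown to 0.20 for the members, and the dotted line is the median of all genes (0.09).

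The 9 genes under the minimum had no test. Slc38a8 was read by 8 to 18 fragments per library and Slc7a11 by 4 to 15, at means of 0.0942 and 0.0375 FPKM. The other 7 had at most 4 reads in any library, which is too few to compare the groups. Their means were 0.0487 FPKM for Slc7a9, 0.0372 FPKM for Slc3a1, 0.0303 FPKM for Slc36a2, 0.0275 FPKM for Slc1a6, 0.0161 FPKM for Slc7a14, 0.0124 FPKM for Slc38a11 and 0.00389 FPKM for Slc1a7.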

How the data were processed

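Messenger RNA of 5 CON and 5 HG fetal hearts was sequenced from stranded libraries. The authors deposited FPKM per gene and library (0 columns of per-sample values unused), with GO and KEGG annotation. The submitters' processing notes name fastp, HISAT2, HTSeq, R 3.2.0 and the build mRatBN7.2, with no roles. Members and gene lists were chosen with earlier results of these data known.

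The 14542 genes that averaged 0.1 FPKM or more entered limma 3.58.1 (R 4.3.3) as log2(FPKM + 0.1) (linear model with a trend on expression, no covariate, Benjamini-Hochberg over all genes). This scale understates changes of low genes. DESeq, named in the study's methods, needs counts and was not used. The spacing of FPKM values gave back the reads behind them, all (100%) whole within 0.001 reads. Ratios and sums were tested by exact permutation of the libraries (two-sided). On simulated data for CON against HG (14542 genes), 172 of 200 changed genes were called, and 5 unchanged genes were called as well. These counts are not split by size of change, and detection at the log2FC of each member was not tested.

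Members were named by rule: heavy chains and partners, DEGs, those of smallest adjusted p per family in each direction, the most abundant, and of each list up to 3 genes per direction with the smallest adjusted p plus genes bearing on a member. Other members complete a family. Trib3, Chac1, Stc2, Nos3 and the values of Slc38a9 in each library were chosen after their values were seen. A gene that this rule names is not reported here. Cell type lists also covered endothelium, fibroblasts, red cells, glia and neurons, lung, epicardium and T cells, none of whose sums passed an adjusted p of 0.05 over 12 sums. Alternatives were other pseudocounts (1, 0.01) and filters, other scalings, leaving out hemoglobin genes, limma without the trend or with array weights, voom, a replicate block and each library left out. Python 3.11.15, numpy 2.4.6, pandas 2.3.3 and matplotlib 3.10.9 were used.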

Additional observations from a re-analysis of the deposited data

Results flagged for a closer look

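In 5 of the 72 groups of 5 libraries checked (30 members and 6 ratios), 1 library stood apart from the other 4 by Dixon's test, and chance alone gives about 1 in 20. Slc38a1 was at 37.4 FPKM in HG replicate 1, with the other HG libraries between 34.3 and 35.0. For Slc7a5, HG replicate 2 was at 14.4 FPKM, the others between 10.9 and 11.6. Slc43a3 was at 1.07 FPKM in CON replicate 1, the others between 1.63 and 1.82. The ratio of Slc7a1 to Slc7a2 was 4.07 in CON replicate 4, the others between 6.08 and 6.87. In HG replicate 1 the ratio of Slc43a2 to Slc43a1 was 0.0497, the others between 0.0891 and 0.103. Slc7a5 and Slc43a3 were called higher without these libraries as well.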

How the results depend on the processing

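The number of members called was 10 to 15 over the alternatives. The lower call, Slc38a3, was lost under 10 of 20 alternatives. No members (0) were lower with a pseudocount of 0.01, without a filter and with a minimum mean of 1 FPKM, where Slc38a3 was not tested, 2 with quantile normalization, and 0 to 1 with a library left out. No member (0) was past the DEG threshold with a pseudocount of 1 or a minimum mean of 1 FPKM. Of the lists, glutathione synthesis had 5 calls with a minimum mean of 1 FPKM, where fewer genes were tested, and arginine use 3 with the replicate block. Median-of-ratios factors turned the log2 fold changes of Slc38a1 (-0.0102), Slc7a6os (-0.0397) and Slc38a7 (-0.0657), and quantile normalization those of Slc7a6os (-0.0392) and Slc38a7 (-0.0650). None of these was called under any scaling, and the cause was not tested.

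With a library left out, the sign also varied for members that were not called: Slc7a6os (-0.0310 to 0.0983), Slc38a7 (-0.0104 to 0.0530), Slc1a3 (-0.0970 to 0.0547), Slc7a10 (-0.285 to 0.0487), Slc38a5 (-0.309 to 0.0049) and Slc7a4 (-0.284 to 0.120). The log2 difference of Slc7a5 to Slc7a8 ranged from 0.48 to 0.59, of Slc7a5 to Slc3a2 from -0.0310 to 0.0196, of Slc7a1 to Slc7a2 from -0.189 to 0.0095 and of Slc43a2 to Slc43a1 from -0.61 to -0.32. The replicate numbers share only a number: deviations of same-numbered libraries correlated between -0.13 and 0.11, and 0 of 5 libraries correlated best with its own number. With the replicate block 14 members were called, the same 14 genes, and the log2 difference of Slc7a5 to Slc7a8 was 0.53 with an adjusted p of 0.375, as 5 pairs allow no p below 0.0625. Depth limits Slc7a3, Slc7a4 and Slc1a2, with at most 60, 22 and 11 reads in a library.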
